A study of Mus musculus with 8 samples.

Results

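B16 tumors grown in Ccrl2 KO mice were set against B16 tumors grown in WT mice. The 4 B16 libraries were chosen by tumor type from the 8 libraries of the series, 2 from KO hosts and 2 from WT hosts, and the libraries of Lewis lung carcinoma (LLC), the other grafted tumor, enter no test given here. B16-F0 is a pigmented mouse melanoma line, and its cells were grafted under the back skin of syngeneic mice, C57BL/6 in the labels and C57BL/6J in the methods of the study. The KO hosts lack Ccrl2 in every tissue, the WT hosts carry it, and the grafted cells carry an intact Ccrl2 in both groups. The genotype is thus that of the host. The labels give grafts of 5 days, while another part of the study's text gives an earlier day for B16, and they give neither the age nor the sex of the mice. Each library was made from total RNA of a pool of 3 tumors (KO pools 1 and 2, WT pools 1 and 2), so that differences between single tumors are not seen and the tests measure only the spread between these pools.

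CCRL2 is a receptor that binds chemerin, a secreted protein encoded by Rarres2, without passing on a signal. It holds chemerin at the cell surface and presents it to cells carrying CMKLR1, the signaling receptor of chemerin, which is found on macrophages, NK cells and endothelial cells among others. A graft has to be supplied with vessels from the host. Endothelial cells line these vessels, mural cells (pericytes and smooth muscle cells) wrap them, and both deposit the basement membrane of collagen IV, laminins and nidogens. Tumor cells far from a vessel meet low oxygen, under which the transcription factor HIF-1 raises glycolytic enzymes, glucose transport and Vegfa. In melanoma cells, MITF drives the enzymes that make melanin.

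Promoter sequences are shown first for 4 genes of glucose use and 3 pigment genes, since these are the gene groups that read higher in KO pools in the values below. They were taken from RefSeq windows (GRCm38.p6) that run from 250 bases before to 50 bases after a gene's start, and each is a stretch of 30 bases upstream of that start, written 5′ to 3′ on the strand of the gene. Capitals mark the letters ACGTG on either strand, which are a form of the core of the element that HIF-1 binds. Other forms of this core were not searched. Slc2a1, the glucose transporter GLUT1, is shown at chr4:119108697-119108726 (plus strand), bases −48 to −19. Pgk1, phosphoglycerate kinase, is shown at chrX:106186947-106186976 (plus strand), bases −153 to −124. Pgam1, phosphoglycerate mutase, is shown at chr19:41911745-41911774 (plus strand), bases −126 to −97. Ldha, lactate dehydrogenase A, is shown at chr7:46845751-46845780 (plus strand), bases −53 to −24.
Slc2a1: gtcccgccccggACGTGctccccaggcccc
Pgk1: aggACGTGacaaatggaagtagCACGTctc
Pgam1: cgctccttgcttACGTGcgctccgtgactg
Ldha: gcctaCACGTGggttcccgCACGTccgctg
In Ldha the first match reads CACGTG, which holds ACGTG on both strands and is also an E-box, a motif of other factors. A match is a description of the letters only, and only stretches that hold a match are printed. As the hypoxia and glycolysis lists hold genes that HIF-1 raises, a share of matches above that of all windows is no separate result. ACGTG stood in 17 of the 27 windows of the hypoxia genes (19 of 21 genes had a window), in 10 of the 22 windows of the glycolysis genes (14 of 14), and in 6447 of all 32851 windows (19.6%).

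The pigment genes shown here carry the letters CATGTG, the core of the M-box that MITF binds, and capitals mark them in the same way. Tyrp1, tyrosinase-related protein, is shown at chr4:80834155-80834184 (plus strand), bases −58 to −29. Dct, dopachrome tautomerase, is shown at chr14:118052379-118052408 (minus strand), bases −162 to −133. Tyr, tyrosinase, is shown at chr7:87493516-87493545 (minus strand), bases −33 to −4.
Tyrp1: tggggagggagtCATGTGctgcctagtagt
Dct: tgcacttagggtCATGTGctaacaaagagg
Tyr: gaaaaagttagtCATGTGctttgcagaaga
CATGTG, searched on both strands, stood in 8 of 16 windows of the melanocyte genes (12 of 18 genes had a window) and in 4650 of all 32851 windows (14.2%). It does not overlap ACGTG. As the list holds genes that MITF drives, its higher share is no separate result.

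Levels are given in reads per M reads on genes (RPM). From the spacing of the rounded values, library sizes came to 28.01 and 25.17 M reads for the KO pools and to 25.07 and 24.32 M for the WT pools, so that 3 reads correspond to 0.107 to 0.123 RPM, as counting error only. The 18 melanocyte markers summed to 26760 and 26090 RPM in the KO pools and to 23200 and 22020 RPM in the WT pools, against 204.2 to 228.0 RPM in the LLC pools, and no melanocyte marker was at 0 in a B16 pool, which fits the label. One library stood apart. WT pool 1 held 972.1 RPM of 16 skeletal muscle markers, against 8.65 and 9.9 RPM in the KO pools and 8.9 RPM in WT pool 2, and medians without WT pool 1 are given beside the main gene groups below.

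A level of 1 RPM in 2 or more of the 4 pools was reached by 13428 of 47729 genes, and these were compared. At the threshold used here (limma, Benjamini-Hochberg adjusted p under 0.05) no gene was called lower in KO (0%) and none higher (0%), and the smallest adjusted p was 0.0526. A filter of 5 RPM gave 5 called genes, all lower, and robust moderation of the variances gave 26 lower and 1 higher. At an unadjusted p under 0.05, 1548 genes (11.5%) were lower in KO and 645 (4.8%) higher. Both counts fell when either WT pool was left out. Such a fit takes its residual spread from the KO pools alone, and the cause of the fall was not tested. At an adjusted p under 0.10, a level chosen after the values were seen, 47 genes (0.35%) were lower and 5 (0.0372%) higher, and with any 1 pool left out no gene passed it. Both KO pools lay below both WT pools in 4321 genes (32.2%) and above both in 2254 genes (16.8%), and these shares are the background for the gene groups. The median log2 fold change (KO over WT, on log2(RPM + 0.5)) over all tested genes was −0.05. With TMM factors 1050 genes were lower and 1031 higher at an unadjusted p under 0.05, and with median-of-ratios factors 1038 were lower and 1054 higher, so that the excess of lower genes depends on the scaling. No gene is therefore described as changed below, and the values of the pools are given instead.

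Genes of the blood endothelium read lower in the KO pools almost throughout. All 40 endothelial genes of the list passed the filter, and both KO pools lay below both WT pools in 36 of them and above both in 1, against 32.2% and 16.8% of all genes. Their median log2 fold change was −1.17. At an unadjusted p under 0.05, 36 were lower (11.5% of all genes). At an adjusted p under 0.10, 10 were lower (0.35% of all genes), with none called at 0.05. In these bulk samples fewer endothelial cells and less RNA per endothelial cell cannot be told apart. Against WT pool 2 alone, a comparison added after the values were seen, both KO pools were lower in 37 of the 40 genes (92.5%, against 46.1% of all genes), and 28 were lower at an unadjusted p under 0.05 in a fit without WT pool 1. Without WT pool 1 the median was −0.96, and over the 4 ways of leaving out 1 pool it ran from −1.48 to −0.96.

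Pecam1 encodes CD31, the adhesion molecule by which vessels are stained in sections. It had 14.8 and 12.2 RPM in the KO pools, against 45.8 and 33.9 RPM in the WT pools, and the groups did not overlap. Its log2 fold change was −1.52 (SE 0.16, 95% confidence interval −1.90 to −1.13, limma adjusted p = 0.0730). Cdh5, the VE-cadherin of endothelial junctions, had 7.15 and 5.65 RPM in KO pools, against 27.6 and 16.25 RPM in WT pools, and the lower WT pool was still above both KO pools. Its log2 fold change was −1.66 (SE 0.24, adjusted p = 0.0950). Esam, a second junction molecule, read 5.25 and 3.35 RPM in KO pools and 17.7 and 11.7 RPM in WT pools. Cd93, a glycoprotein of angiogenic endothelium, stood at 25.55 and 25.85 RPM in KO pools, against 59.45 and 50.05 RPM in WT pools. Its log2 fold change of −1.07 (SE 0.10, 95% confidence interval −1.31 to −0.83) came with the smallest adjusted p of the comparison, 0.0526, together with Mmp3, Acta2 and Scand1.

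The receptors through which vessels are told to grow and to mature were among these genes. Kdr (VEGFR2), the main receptor of Vegfa, had 7.95 and 8.1 RPM in KO pools and 22.95 and 15.15 RPM in WT pools. Flt1 (VEGFR1), its other receptor, had 6.9 and 6.25 RPM in KO pools and 21.6 and 13.25 RPM in WT pools. In both genes WT pool 1 was the highest, and their log2 fold changes were −1.17 (SE 0.19) and −1.30 (SE 0.22), each with an adjusted p of 0.102. Tek (TIE2), the angiopoietin receptor, was at 4.9 and 6.15 RPM in KO pools, against 13.15 and 12 RPM in WT pools (log2 fold change −1.12, adjusted p = 0.0950). Tie1 showed 4.75 and 2.75 RPM in KO pools and 12.3 and 10.05 RPM in WT pools. Ptprb, the phosphatase that acts on TIE2 in endothelium, read 4.4 and 3.55 RPM in KO pools, against 14.1 and 11.15 RPM in WT pools (log2 fold change −1.55, SE 0.17, adjusted p = 0.0755). None of these 5 genes overlapped between the groups.

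Other members mark the surface, the identity and the type of the endothelium. Plvap, which forms the diaphragms of leaky capillaries, read 18.45 and 12.45 RPM in KO pools and 54.4 and 37.55 RPM in WT pools (log2 fold change −1.54, adjusted p = 0.0950). Adgrf5, an adhesion receptor, read 4.35 and 3.6 RPM in KO pools and 14.35 and 10.55 RPM in WT pools, and Emcn (endomucin), a sialomucin of veins and capillaries, had 4.95 and 3.15 RPM in KO pools against 14.75 and 10.5 RPM in WT pools. Sox18, a transcription factor of developing vessels, had the lowest log2 fold change of the list, −1.92 (SE 0.28), from 3.2 and 1.55 RPM in KO pools and 11.1 and 8.9 RPM in WT pools. The tip cell ligand Dll4, the flow-related factors S1pr1 and Nos3 and the transcription factor Erg also had both KO pools below both WT pools, at log2 fold changes of −1.39, −1.23, −0.87 and −1.26. These low genes rest on few reads, and the adjusted p of Dll4, Nos3 and Erg was 0.162, 0.181 and 0.164.

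The remaining 4 members did not follow the rest. Eng (endoglin) had 158.25 and 159.45 RPM in KO pools and 152.5 and 135.4 RPM in WT pools, so that both KO pools lay above both WT pools, and its log2 fold change was 0.14 (95% confidence interval −0.03 to 0.32). Ecscr, Hspa12b and Gja4 overlapped or touched between the groups, and Ecscr read 14.6 and 13.0 RPM in KO pools and 16.75 and 13.95 RPM in WT pools. Cd34, also carried by fibroblasts, and Vwf had smaller differences, at log2 fold changes of −0.54 and −0.48.

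**Figure D1:**
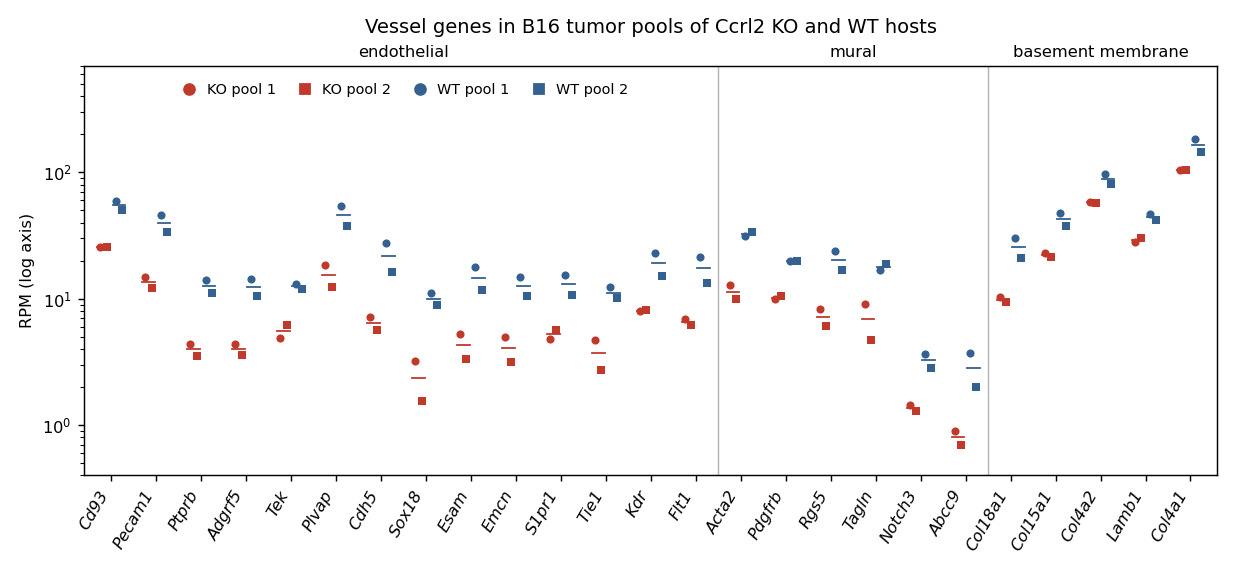
RPM (log axis) of the 14 endothelial, 6 mural and 5 basement membrane genes with the smallest unadjusted p of their lists, in the 2 KO pools (red) and the 2 WT pools (blue), with the mean of each group as a short line. In every gene shown the 2 red points lie below the 2 blue points, and the gap is widest for Sox18 among the endothelial genes.

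Mural cell genes read lower in KO pools as a group of nearly the same size. Of 13 genes, 10 passed the filter. Each of these 10 read lower in both KO pools than in either WT pool, against 32.2% of all genes. Their median log2 fold change was −1.16. Leaving out WT pool 1 gave a median of −0.94, and leaving out KO pool 2 gave −0.97. The other 3 genes, Cnn1, Kcnj8 and Higd1b, were under the filter and not tested, with no pool above 1.4 RPM. Acta2, the smooth muscle actin of arterial walls and activated fibroblasts, had 12.75 and 9.95 RPM in KO pools, against 31.4 and 33.75 RPM in WT pools (log2 fold change −1.49, SE 0.13, adjusted p = 0.0526). Pdgfrb, the receptor by which pericytes are drawn to vessels, was at 9.9 and 10.55 RPM in KO pools and at 20 RPM in each WT pool (log2 fold change −0.94, SE 0.11, adjusted p = 0.0755). Its ligand Pdgfb, made by endothelial cells, read 5.55 and 4.75 RPM in KO pools, against 12.3 and 10.2 RPM in WT pools (log2 fold change −1.05, SE 0.16, adjusted p = 0.0950). Ligand and receptor were thus both at a lower level in each KO pool than in each WT pool.

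Rgs5, a pericyte gene, read 8.3 and 6.05 RPM in KO pools and 24 and 16.85 RPM in WT pools, a log2 fold change of −1.44 (adjusted p = 0.0950). Tagln (SM22), a smooth muscle protein that binds actin, read 9.15 and 4.75 RPM in KO pools and 16.85 and 18.9 RPM in WT pools. Notch3 and Abcc9, both also pericyte genes, were low in all pools, at 0.7 to 1.45 RPM in KO pools and 2.0 to 3.7 RPM in WT pools. Mcam, which melanoma cells also carry, differed least, at 109.0 and 103.9 RPM in KO pools and 123.65 and 134.8 RPM in WT pools (log2 fold change −0.28).

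Among genes of the vessel basement membrane, the collagens and part of the laminins read lower in KO pools, with none called. Of 12 genes tested, 10 had both KO pools below both WT pools and none had both above, against 32.2% and 16.8% of all genes. The median log2 fold change was −0.53 (−0.49 without WT pool 1). Col18a1, the collagen from which endostatin is cleaved, had 10.3 and 9.35 RPM in KO pools, against 30.05 and 20.9 RPM in WT pools, with a log2 fold change of −1.31 (SE 0.17, adjusted p = 0.0950). Col15a1 read 22.85 and 21.4 RPM in KO pools and 48.0 and 37.4 RPM in WT pools, which is the same order at a log2 fold change of −0.92. The collagen IV chains Col4a1 and Col4a2, which lie head to head in the genome, had log2 fold changes of −0.64 and −0.61. Col4a1 was at 103.75 and 105.35 RPM in KO pools and at 183.4 and 146.1 RPM in WT pools. The laminin chains differed among themselves, since Lamb1 read 28.1 and 30.1 RPM in KO pools against 46.75 and 42.0 RPM in WT pools, while Lama5 and Lamb2 overlapped between the groups at log2 fold changes of −0.01 (0.04 with TMM factors) and 0.02.

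Fibroblast genes read lower in part. All 15 were tested. Both KO pools lay below both WT pools in 9 and above both in 1 (Fbln1), against 32.2% and 16.8% of all genes. The median log2 fold change was −0.55 (−0.59 without WT pool 1). The fibrillar collagens had the highest levels in the list. Col3a1 was at 586.4 and 669.15 RPM in KO pools and at 820.85 and 1100.2 RPM in WT pools, and Col1a1 at 263.3 and 251.6 RPM in KO pools and at 340.95 and 414.8 RPM in WT pools. The log2 fold change was −0.60 for Col3a1 (adjusted p = 0.160) and −0.55 for Col1a1 (adjusted p = 0.116). Postn (periostin), of activated fibroblasts, had 45.4 and 26.6 RPM in KO pools and 60.9 and 71.35 RPM in WT pools. Pdgfra, Thy1, Pi16, Mfap5 and Serpinf1 overlapped between the groups, and Pi16 was highest in KO pool 2, at 90.4 RPM, against 39.15 RPM in KO pool 1.

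Among the signals that vessels answer to, Vegfa went the other way from its receptors. Which cells made its RNA cannot be told in these bulk pools. Vegfa had 395.75 and 432.75 RPM in KO pools, against 333.0 and 346.35 RPM in WT pools, and the groups did not overlap (log2 fold change 0.28, SE 0.07, 95% confidence interval 0.12 to 0.45, adjusted p = 0.164). Pgf, a relative that binds Flt1, was likewise above both WT pools, at 19.25 and 24.75 RPM in KO pools and 17.05 and 16.95 RPM in WT pools. Of the 18 ligands tested, 8 had both KO pools below both WT pools and 2, these 2 genes, had both above. The shares of all genes were 32.2% and 16.8%. The median log2 fold change of the ligands was −0.22 (−0.20 without WT pool 1). Angpt2, released by activated endothelium, read 13.95 and 11.15 RPM in KO pools and 22.25 and 16.85 RPM in WT pools. Cxcl12, a stromal chemokine, read 34.3 and 49.65 RPM in KO pools against 65.65 and 62.1 RPM in WT pools, and Angptl4 read 12.1 and 15.85 RPM in KO pools against 17.55 and 22.5 RPM in WT pools. Fgf2 overlapped, at 6.15 and 9.55 RPM in KO pools and 9.1 and 9.85 RPM in WT pools (log2 fold change −0.29, 95% confidence interval −0.77 to 0.20).

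The chemerin system itself was read at low to moderate levels in all 4 pools. Ccrl2 (ENSMUSG00000043953, minus strand of chromosome 9, 111054486 to 111057519 in GRCm38) had 3.55 and 3.1 RPM in KO pools, against 4.25 and 3.8 RPM in WT pools, although the hosts of the KO pools lack the gene. As the grafted cells carry it, this level is no check of the host genotype. Both KO pools lay below both WT pools, at a log2 fold change of −0.24 (95% confidence interval −0.64 to 0.16, adjusted p = 0.503), and an exact two-sided permutation test gave p = 0.333, the smallest that 2 pools against 2 allow. Rarres2 had 19.6 and 21.65 RPM in KO pools and 22.35 and 46.15 RPM in WT pools, so that WT pool 2 alone was high (log2 fold change −0.63, exact permutation p = 0.333). Cmklr1 was at 12.65 and 21.95 RPM in KO pools and at 16.45 and 22.25 RPM in WT pools, and Gpr1, the third chemerin receptor, at 0.85 and 1.5 RPM in KO pools and at 1.4 and 1.75 RPM in WT pools. Both overlapped between the groups, each with an exact permutation p of 0.667.

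Glycolysis genes read higher in the KO pools without exception. In all 14 genes, which were all tested, both KO pools lay above both WT pools, against 16.8% of all genes. At an unadjusted p under 0.05, 12 were higher, against 4.8% of all genes. The median log2 fold change was 0.29, and over the 4 ways of leaving out 1 pool it stayed between 0.30 and 0.31. Against WT pool 2 alone, both KO pools were higher in all 14 (26.9% of all genes), and 10 were higher at an unadjusted p under 0.05 in a fit without WT pool 1. With TMM or median-of-ratios factors the median was 0.34. Gapdh, glyceraldehyde-3-phosphate dehydrogenase, had 10133 and 10786 RPM in KO pools, against 7545 and 7168 RPM in WT pools. Its log2 fold change of 0.51 (SE 0.09, 95% confidence interval 0.28 to 0.73, adjusted p = 0.128) was the largest of the list, and the gene has many near-identical processed copies in the genome, which makes its count less certain. It was also the reference gene of the study's RT-qPCR.

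The other steps of the pathway lay in the same order. Pfkl, the liver-type phosphofructokinase at the committed step, had 782.6 and 780.65 RPM in KO pools and 628.55 and 612.3 RPM in WT pools (log2 fold change 0.33, SE 0.06, adjusted p = 0.124). Pgam1 had 453.55 and 519.8 RPM in KO pools and 370.65 and 365.05 RPM in WT pools, and the enolase Eno1 had 5546 and 5269 RPM in KO pools and 4261 and 4128 RPM in WT pools. Their log2 fold changes were 0.40 and 0.37. Pkm, pyruvate kinase, read 6709 and 6612 RPM in KO pools against 5500 and 5294 RPM in WT pools, and Slc16a3 (MCT4), which exports lactate, read 433.9 and 461.2 RPM in KO pools against 352.8 and 384.8 RPM in WT pools. Ldha, whose promoter stretch is printed above, differed least, at 5659 and 5509 RPM in KO pools and 5100 and 5034 RPM in WT pools (log2 fold change 0.14, 95% confidence interval −0.05 to 0.33).

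The wider response to low oxygen was higher in part. Of 21 genes, all tested, 14 had both KO pools above both WT pools and none had both below. The shares of all genes were 16.8% and 32.2%. The median log2 fold change of the list was 0.14 (range 0.09 to 0.20 when 1 pool was left out). At an unadjusted p under 0.05, 8 were higher, and 3 in the fit without WT pool 1. Vegfa, Pgk1 and Ldha are counted in this list too and in one of the lists above. Slc2a1 had 411.75 and 405.65 RPM in KO pools, against 323.05 and 316.65 RPM in WT pools (log2 fold change 0.35, SE 0.06, adjusted p = 0.102). Car9, the carbonic anhydrase used as a marker of hypoxic tumor areas, had 223.3 and 258.15 RPM in KO pools and 200.9 and 208.0 RPM in WT pools, and Egln3, a HIF prolyl hydroxylase that HIF itself raises, had 27.9 and 32.1 RPM in KO pools and 20 and 26.8 RPM in WT pools. Both were above without overlap, at log2 fold changes of 0.23 and 0.36. The other 7 genes of the list did not separate the groups.

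Pigment and melanocyte genes read higher in KO pools by a similar margin. All 18 were tested. Both KO pools lay above both WT pools in 12 and below both in 1 (Ednrb), against 16.8% and 32.2% of all genes. The median log2 fold change was 0.21. It ran from 0.16 to 0.24 when 1 pool was left out, and 8 genes were higher at an unadjusted p under 0.05 without WT pool 1, against 9 with it. Tyrp1 had 4821 and 5040 RPM in KO pools, against 4023 and 3710 RPM in WT pools (log2 fold change 0.35, SE 0.09, adjusted p = 0.164), and Dct had 5016 and 4899 RPM in KO pools, against 4425 and 4098 RPM in WT pools. Tyr differed less, at 1261 and 1303 RPM in KO pools and 1206 and 1156 RPM in WT pools (log2 fold change 0.12). Mlph (melanophilin), which ties melanosomes to their motor, had the largest log2 fold change of the list, 0.38 (SE 0.07, adjusted p = 0.116), from 589.85 and 643.45 RPM in KO pools and 475.4 and 469.6 RPM in WT pools.

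The regulators of the lineage were not uniform. Sox10 had 420.95 and 411.0 RPM in KO pools and 353.7 and 354.35 RPM in WT pools (log2 fold change 0.23), while Mitf overlapped, at 389.2 and 488.05 RPM in KO pools and 453.35 and 453.75 RPM in WT pools. The melanocortin receptor Mc1r had 415.65 and 402.7 RPM in KO pools and 329.6 and 345.35 RPM in WT pools. Ednrb, the endothelin receptor that melanocytes share with endothelial cells, was opposite to the rest, at 15.05 and 27.0 RPM in KO pools and 37.75 and 30.9 RPM in WT pools (log2 fold change −0.74, 95% confidence interval −1.33 to −0.16).

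**Figure D2:**
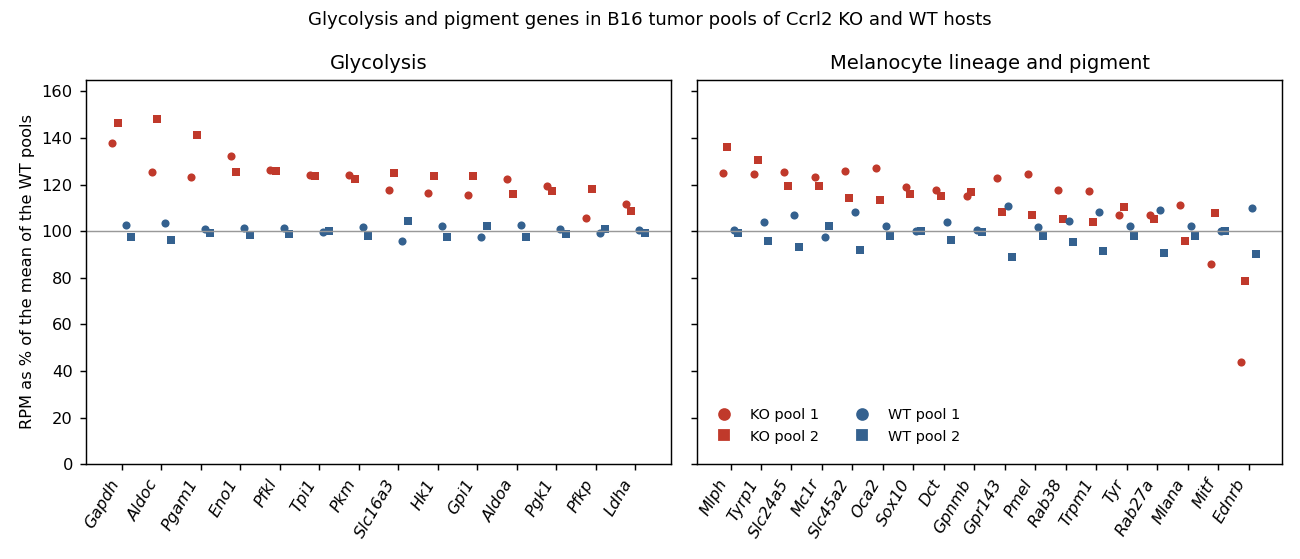
RPM of each of the 14 glycolysis genes and 18 melanocyte genes in the 2 KO pools (red) and the 2 WT pools (blue), as percent of the mean of the WT pools, ordered by log2 fold change. The red points of every glycolysis gene lie above the blue ones, while those of Mitf mix with the blue ones and Ednrb lies at the other end.

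Since RPM is a share of a library, a gain of tumor cell RNA and a loss of stromal RNA move each other. The sum of the melanocyte markers was used as a scale for the tumor cells, a choice made after the values were seen and given with no test. Per 1000 RPM of melanocyte markers, the endothelial list summed to 16.9 and 17.3 in KO pools and to 35.0 and 30.8 in WT pools, a ratio of 0.52 of KO over WT. The ratio was 0.536 for mural genes, 0.607 for fibroblast genes and 0.675 for basement membrane genes. For glycolysis it was 1.07, from 1760 and 1820 in KO pools and 1650 and 1700 in WT pools, which still did not overlap, and for the hypoxia list it was 0.976. This scale lowers most lists, and it gave 0.868 for the unfolded protein response, 0.891 for oxidative phosphorylation and 0.773 for proliferation genes. These ratios compare summed levels, so members at high levels weigh most. Among them are Eng and Mcam, which did not share the large differences of their lists. Gapdh, with the largest log2 fold change of the glycolysis list and a less certain count, is another. Ratios without these genes were not computed. On these sums, lists outside the vessel wall were about as low as the vessel lists or lower. Mast cell genes gave 0.527, adipocyte genes 0.378 and erythroid genes 0.219.

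**Figure D3:**
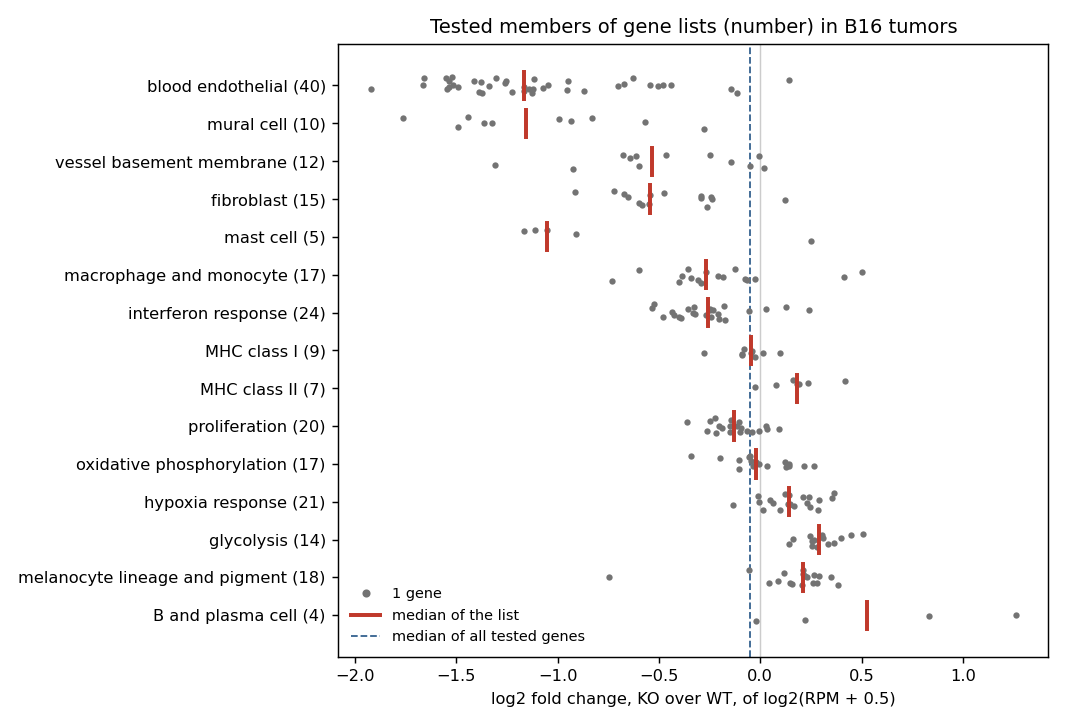
Log2 fold change (KO over WT, on log2(RPM + 0.5)) of each tested member of 15 gene lists, with the number of members in brackets, a red line at the median of a list and a dashed line at the median of all tested genes, −0.05. The endothelial, mural and mast cell lists centre below −1, and the glycolysis and melanocyte lists centre at 0.29 and 0.21.

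Interferon response genes were lower in KO pools by a small amount. Of 24 genes, all tested, 19 had both KO pools below both WT pools and none had both above, and 17 were lower at an unadjusted p under 0.05 (11 without WT pool 1). Over all genes, both KO pools lay below both WT pools in 32.2% and above both in 16.8%. The median log2 fold change of the list was −0.26 and ran from −0.32 to −0.20 when 1 pool was left out. Usp18, which switches off the signal of the type I interferon receptor, had 42.5 and 37.3 RPM in KO pools, against 59.05 and 56.6 RPM in WT pools (log2 fold change −0.53, SE 0.09, adjusted p = 0.102). Mx1, an antiviral GTPase, read 18.55 and 17.25 RPM in KO pools and 24.95 and 27.05 RPM in WT pools, and Ifit3 read 84.1 and 85.4 RPM in KO pools and 107.65 and 122.6 RPM in WT pools. The 5 members that overlapped between the groups were Gbp2, Gbp3, Igtp, Iigp1 and Irgm1, and Gbp2 read 83.75 and 122.0 RPM in KO pools and 73.2 and 99.85 RPM in WT pools. All 9 MHC class I genes overlapped as well, with a median of −0.04.

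Macrophage genes were read at moderate levels with wide spread between the pools of a group. Of 17 genes, 6 had both KO pools below both WT pools, a share near the 32.2% of all genes, and none had both above. The median log2 fold change was −0.27 (−0.08 without KO pool 1 and −0.38 without WT pool 1). Adgre1 (F4/80), the general macrophage marker, had 48.15 and 56.25 RPM in KO pools and 67.75 and 92.3 RPM in WT pools (log2 fold change −0.60, adjusted p = 0.165). Arg1, an enzyme of macrophages in tumors, overlapped between the groups, at 92.4 and 155.55 RPM in KO pools and 68.15 and 104.85 RPM in WT pools. Of the 7 MHC class II genes 3 had both KO pools above both WT pools, against 16.8% of all genes. The invariant chain Cd74 had 485.3 and 580.3 RPM in KO pools, against 385.95 and 409.55 RPM in WT pools (limma log2 fold change 0.42, SE 0.09, adjusted p = 0.152).

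Among lymphoid genes, 2 genes of secreted antibody read higher in KO pools. Igkc, the constant region of the kappa light chain, had 74.25 and 84.45 RPM in KO pools, against 40.55 and 26.35 RPM in WT pools (log2 fold change 1.26, SE 0.19, 95% confidence interval 0.82 to 1.70, adjusted p = 0.0950). Jchain, which joins IgM and IgA subunits, had 18.3 and 20.1 RPM in KO pools, against 11.75 and 9.45 RPM in WT pools (log2 fold change 0.83, adjusted p = 0.102). The lambda constant gene Iglc3 and the variable gene Igkv8-16 were also higher in KO pools, at 0.35 to 1.8 and 0.45 to 4.7 RPM over the 4 pools, but Ighm overlapped. The B cell genes Cd79a and Ms4a1 were at 0.15 to 0.6 RPM over the pools and not tested. T cell genes were low as well, with 6 of 11 tested and none separating the groups. Of 10 NK and cytotoxic genes 2, the NK receptor genes Klrd1 and Klrk1, had both KO pools below both WT pools. This is no larger a share than the 32.2% of all genes. Against WT pool 2 alone, both KO pools were lower in 8 of the 10 genes (80.0%, against 46.1% of all genes) and higher in 0. Klrd1 read 4.1 and 3.4 RPM in KO pools and 4.65 and 6.15 RPM in WT pools, and Klrk1 read 8.15 RPM in each KO pool and 8.6 and 10.1 RPM in WT pools. Without WT pool 1 the median of the 4 tested B and plasma cell genes was 0.64, against 0.53 with it.

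Mast cell genes were low and read lower in KO pools. Of 7 genes, 5 were tested, and 4 of these had both KO pools below both WT pools, against 32.2% of all genes. The median log2 fold change over the 5 was −1.05 (−0.90 without WT pool 1). The chymase Mcpt4 had 1.7 and 2.3 RPM in KO pools and 6.05 and 4.25 RPM in WT pools (log2 fold change −1.17, adjusted p = 0.128), and the tryptase Tpsb2 had 1.35 and 1.85 RPM in KO pools and 4.05 and 3.6 RPM in WT pools. Hdc, which neutrophils also carry, was the exception, at 9.65 RPM in KO pool 1 and 2.2 to 4.45 RPM in the other 3 pools.

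Among inflammatory mediators single pools set most values. Cxcl2, a neutrophil chemokine, had 65.0 and 20.8 RPM in KO pools, against 13.65 and 19.55 RPM in WT pools, so that its log2 fold change of 1.15 (95% confidence interval 0.05 to 2.25, adjusted p = 0.288) rests on KO pool 1. Il1b was also highest in KO pool 1, at 39.65 RPM, against 9.6 RPM in KO pool 2 and 17.05 and 15.55 RPM in WT pools. Il10 was lower in both KO pools, at 1.2 and 1.05 RPM, against 2.35 and 3.45 RPM in WT pools (log2 fold change −1.05, SE 0.23, adjusted p = 0.149), and Ccl2, the main monocyte chemokine, had 97.6 and 78.15 RPM in KO pools and 101 and 149.5 RPM in WT pools. Ifng and Mmp10 were under the filter, at no more than 0.6 RPM.

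Outside the gene lists, 4 genes led the lower ones by unadjusted p, and 3 of these encode secreted proteins. Mmp3 (stromelysin-1), a matrix metalloproteinase, had 16.15 and 16.55 RPM in KO pools, against 36.4 and 43.1 RPM in WT pools (log2 fold change −1.25, SE 0.11, 95% confidence interval −1.51 to −0.99, adjusted p = 0.0526). Adamts5, which cleaves aggrecan and versican, had 26.05 and 22.1 RPM in KO pools and 47.85 and 50.25 RPM in WT pools (log2 fold change −1.02, SE 0.10, adjusted p = 0.0629). Igfbp3, which carries insulin-like growth factors, had 23.9 and 15.65 RPM in KO pools and 76.3 and 61.65 RPM in WT pools, a log2 fold change of −1.80 (SE 0.20, adjusted p = 0.0730). Scand1 had 14.55 and 13.85 RPM in KO pools and 29.3 and 31.55 RPM in WT pools. In these 4 genes the 2 pools of a host were close to each other relative to the gap between hosts. Choosing genes by a small p favors this, so it is no separate result.

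In the other direction the leading genes were few and mostly low. Hcar2, the receptor for beta-hydroxybutyrate and niacin, had 16.3 and 9.1 RPM in KO pools, against 4.6 and 5.35 RPM in WT pools (log2 fold change 1.22, SE 0.26, adjusted p = 0.143). Il1f9 (IL-36 gamma) had 1.95 and 1.15 RPM in KO pools and 0.3 and 0.6 RPM in WT pools. Greb1, Ngfr and Ptpn5 were high in KO pool 2 alone, and Ngfr, the low-affinity nerve growth factor receptor of neural crest cells, read 1.75 and 9.4 RPM in KO pools and 1.3 and 1.35 RPM in WT pools. Of the most abundant genes that separated the groups, Gapdh, Pkm, Ldha, the elongation factor Eef1a1 and the melanosomal protein Gpnmb were higher in KO pools, and the mitochondrial mt-Cytb and mt-Nd1, the actin Actb and the ribosomal Rpsa and Rplp1 were lower, although the log2 fold change of Rpsa was 0.00 with TMM factors. Eef1a1, Rpsa and Rplp1 have many processed copies and their counts are less certain.

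**Figure D4:**
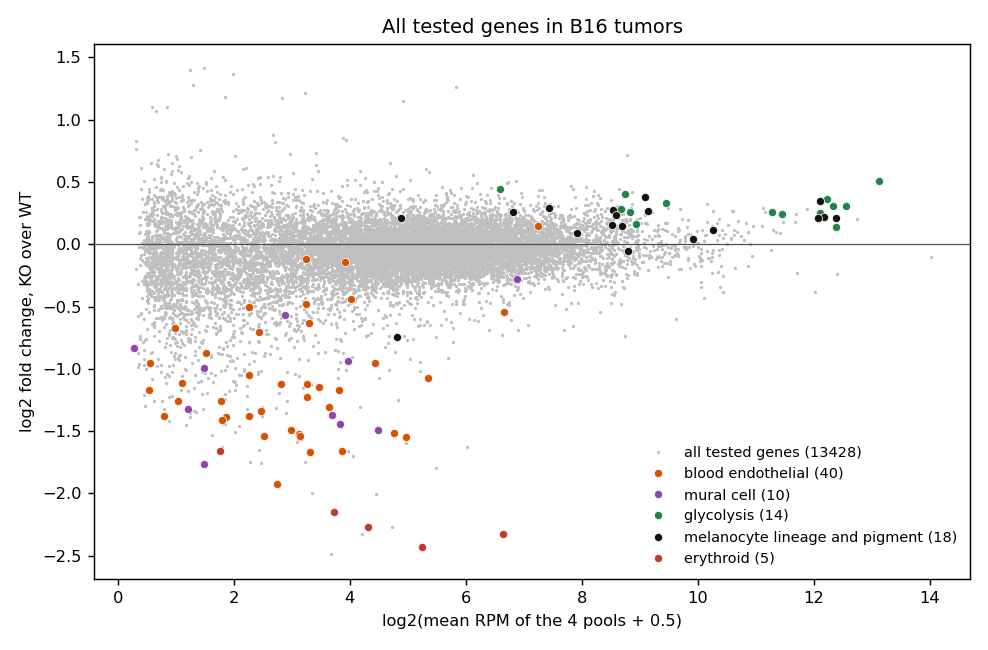
Log2 fold change (KO over WT) against log2(mean RPM of the 4 pools + 0.5) for all 13428 tested genes (grey), with 5 gene lists in color. Endothelial and mural genes lie low at moderate levels, glycolysis and melanocyte genes lie slightly above 0 at high levels, and the erythroid genes are among the lowest.

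Markers of other tissues differed between pools and moved in part with the vessel genes. The 6 erythroid genes, globins for the most part, summed to 118.8 and 22.7 RPM in KO pools and to 242.5 and 303.8 RPM in WT pools. All 5 tested members had both KO pools below both WT pools, against 32.2% of all genes. Hba-a1 read 23.65 and 4.75 RPM in KO pools and 52.35 and 68.75 RPM in WT pools. The list's median log2 fold change was −2.27, and −1.15 without KO pool 2. Alpha-globin genes are near-identical to each other and share reads, as do beta-globin genes. The 11 adipocyte genes summed to 47.95 and 125.3 RPM in KO pools and to 262.3 and 134.9 RPM in WT pools, so that KO pool 1 was lowest and WT pool 1 highest, and only Fabp4, which capillary endothelium also carries, separated the groups. Fabp4 had 26.55 and 35.5 RPM in KO pools, against 114.8 and 80.05 RPM in WT pools (log2 fold change −1.63, SE 0.19, adjusted p = 0.0755).

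The skeletal muscle signal of WT pool 1 came from sarcomere genes, with Acta1 at 275.8 RPM there and at 0.05 to 0.15 RPM in the other 3 pools, and with Myh4 at 113.65 RPM there and at 0 in the other 3. Of the 16 muscle genes 3 passed the filter. The lymphatic list (6 genes, 4 tested) summed to 46.3 and 109.0 RPM in KO pools and to 67.0 and 75.05 RPM in WT pools, with Lyve1 at 60.95 RPM in KO pool 2 and 9.3 RPM in KO pool 1. Keratinocyte markers were close to 0, with Krt5 and Krt14 at no more than 0.9 RPM. The part of blood, fat and muscle RNA in the vessel results was not tested. The endothelial median was −0.96 without WT pool 1, which held the muscle signal, and −1.06 without KO pool 2, which held the least erythroid RNA.

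**Figure D5:**
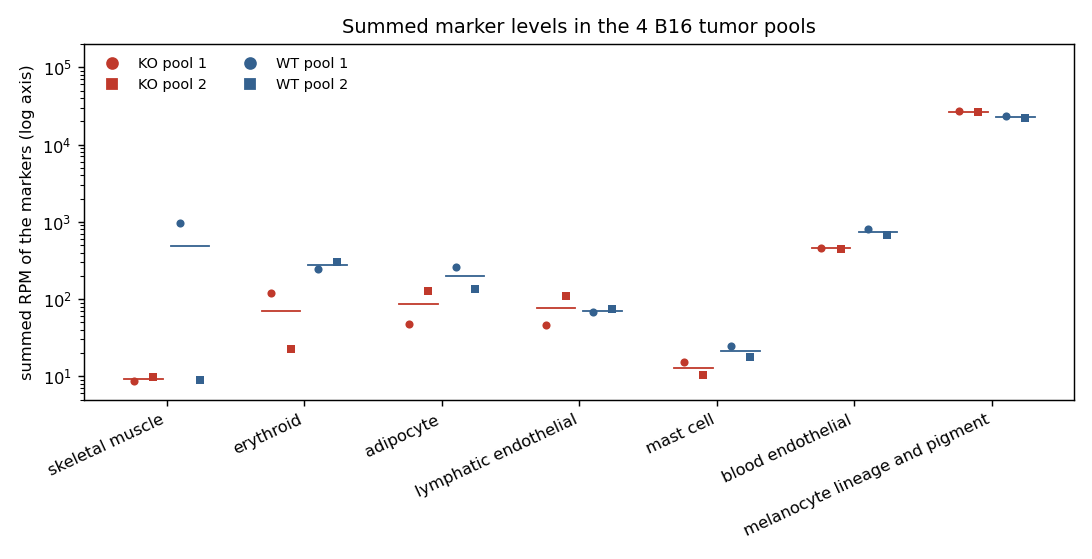
Summed RPM (log axis) of 7 marker lists in the 2 KO pools (red) and the 2 WT pools (blue), with the mean of each group as a short line. Skeletal muscle is high in WT pool 1 alone, erythroid RNA is lowest in KO pool 2 and higher in both WT pools than in both KO pools, and the melanocyte sum is higher in both KO pools than in both WT pools.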

How the data were processed

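RNA of 4 B16 tumor pools was analysed out of 8 pools in the series. Reads were trimmed by the authors, aligned to mm10 (GRCm38.p4) using STAR and assigned to genes with HTSeq, with versions not given in the sources used here. The deposited values are a score, that is, counts that the authors scaled to 20 M per library and rounded, so whole reads could not be used and the count tests of edgeR, which the study ran, were replaced by limma on log2 values. Each value was divided by 20 (RPM), and 3 reads correspond to 0.107 to 0.123 RPM. Genes that reached 1 RPM in 2 or more of the 4 pools were fitted as log2(RPM + 0.5) in R 4.3.3 by limma 3.58.1 with a variance trend (other steps in Python 3.11.15), 2 residual degrees of freedom, two-sided tests and Benjamini-Hochberg adjustment over 13428 genes. Fit and depth estimate were tested on simulated data. For the fit, the spread between libraries was set and not taken from these pools, so that test does not give its power here.

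Members, lists and tests were chosen with earlier results of these data known. Named genes are the 10 smallest unadjusted p in each direction among genes whose pools do not overlap and whose log2 fold change is at least 1 in size (predicted genes left out), up to 6 members of each list (10 for endothelial, melanocyte, hypoxia and muscle genes), genes the study names, and the 5 most abundant non-overlapping genes in each direction. Only 9 genes met the first rule among higher genes. Further list members were named after their values were seen, to show exceptions. No list was tested as a set. Positions come from GENCODE M21 (99.8% of identifiers found). Alternatives were other pseudocounts, filters, scalings and moderation, all 8 pools in 1 model, a replicate block and each pool left out.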

Additional observations from a re-analysis of the deposited data

How the results depend on the processing

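No gene was called in either direction under most alternatives. Genes called lower in KO were 5 with a filter of 5 RPM, 26 with robust moderation and 75 with the replicate number as a block, and genes called higher were 1 with robust moderation and 6 with the block. The labels do not say whether equal numbers pair the pools. Same-numbered pools deviated with a correlation of 0.0736, which cannot decide this as only 2 pairs exist. The block left 1 residual degree of freedom. At an adjusted p under 0.10, the 47 lower genes became 13 with a pseudocount of 0.05 RPM, 0 without a filter, 0 with all 8 libraries, 192 with the replicate block, 142 with robust moderation, 0 without the variance trend and 13 with totals that leave out muscle, erythroid and mitochondrial genes, an alternative added after seeing the data, and 0 to 0 when 1 pool was left out. The 5 higher genes became 0 with a pseudocount of 0.05 RPM and 14 with 2 RPM, 0 without a filter and 15 with a filter of 5 RPM, 22 with TMM and 24 with median-of-ratios factors, 0 with all 8 libraries, 41 with the replicate block, 43 with robust moderation, 0 without the variance trend, 0 with the added totals, and 0 to 0 when 1 pool was left out. At an unadjusted p under 0.05, all 8 libraries gave 949 lower and 426 higher genes. No filter gave 1081 higher genes, TMM 1031 and median-of-ratios factors 1054. Leaving out 1 pool gave 477 to 1556 lower and 216 to 653 higher genes, lowest without WT pool 2. The endothelial median was −0.92 with a pseudocount of 2 RPM and −1.48 to −0.96 with 1 pool left out, and the mural median was −1.41 with 0.05 RPM, −0.81 with 2 RPM and −1.24 to −0.94 with 1 pool left out. The glycolysis median was 0.34 with TMM and with median-of-ratios factors. The melanocyte median was 0.26 with median-of-ratios factors and 0.16 to 0.24 with 1 pool left out. The cause of these moves was not tested, other than the smaller number of pools or genes in a setting.

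Of 124 tested genes named above, 2 turned direction with TMM and with median-of-ratios factors, Lama5 (log2 fold change 0.039 and 0.041) and Rpsa (0.00082 and 0.0031). With 1 pool left out, 14 turned direction, none of which separated the groups. The range was −0.58 to 0.19 for Cmklr1, −0.58 to 0.012 for Fgf2, −0.030 to 0.51 for Gbp2, −0.70 to 1.21 for Hdc, −0.17 to 0.42 for Igtp, −0.34 to 0.40 for Iigp1, −0.73 to 1.26 for Il1b, −0.20 to 0.094 for Irgm1, −0.091 to 0.079 for Lama5, −0.032 to 0.074 for Lamb2, −1.20 to 1.45 for Lyve1, −0.22 to 0.11 for Mitf, −0.65 to 0.17 for Pdgfra and −0.86 to 0.34 for Pi16. No named gene turned direction under the other alternatives.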

Other observations

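Gene groups not described above gave small differences. Proliferation genes (20 tested) had a median log2 fold change of −0.13, with 7 genes whose KO pools both lay below both WT pools and none above. Over all genes these shares were 32.2% and 16.8%. Birc5 (survivin) read 163.35 and 126.9 RPM in KO pools and 189.3 and 180.5 RPM in WT pools, and the topoisomerase Top2a read 364.15 and 330.5 RPM in KO pools and 424.65 and 382.75 RPM in WT pools. The median was −0.01 without KO pool 2. Nuclear genes of oxidative phosphorylation (17 tested) had a median of −0.02, with 5 below and 6 above, and genes of the unfolded protein response (12 tested) had a median of −0.01. Mitochondrially encoded genes summed to 26460 and 32720 RPM in KO pools and to 33540 and 32470 RPM in WT pools, so that KO pool 1 alone was low.

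In the integrated stress response (13 of 14 genes tested, median −0.03) single members went in opposite directions. Atf4, its transcription factor, had 263.8 and 247.3 RPM in KO pools, against 320.5 and 326.35 RPM in WT pools (log2 fold change −0.34, SE 0.06, adjusted p = 0.128 from limma). Ddit4 (REDD1), which hypoxia also raises, had 170.85 and 177.35 RPM in KO pools, against 144.9 and 144.25 RPM in WT pools (log2 fold change 0.27, SE 0.06, adjusted p = 0.158). Neither group of values overlapped.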
